A study of Mus musculus with 50 samples.

Results

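The integrated stress response genes described here are Atf4, Atf5, Ddit3, Ppp1r15a, Trib3, Sesn2, Asns, Psat1, Phgdh and Mthfd2, taken by their gene symbols from the annotation of the array. They are 10 of the 19057 genes with a probe, carried by 19 of 45281 probes, and all 10 were among the 12642 genes tested, the genes whose brightest probe had a detection p below 0.05 on 3 or more arrays. RNA on heavy polysomes and total RNA were measured on Illumina bead arrays in derivatives of NIH 3T3, a mouse fibroblast line, after 4 h of treatment. Cells had been given cycloheximide, which holds ribosomes on mRNA, before polysomes were separated on sucrose gradients. In the inducible derivative the steroid mifepristone turns on eIF4E, the protein that binds the mRNA cap at the start of translation. A non-inducible derivative was studied beside it. The inducible line with mifepristone received 0, 10, 50, 100 or 200 µM of 4Ei-1, an inhibitor of eIF4E, or 200 µM of 4Ei-4, a less potent analog. It was also grown without mifepristone and without drug, and the non-inducible line was grown with and without mifepristone, never with drug. Each of these 9 groups had 3 cultures, except the non-inducible line without mifepristone, which had 1, so that 25 cultures gave 50 arrays. Nothing in the labels says that replicates were grown separately, and p-values measure the spread among these samples.

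When a kinase such as PERK or GCN2 phosphorylates eIF2, most translation slows, while a few mRNAs with upstream open reading frames in their leaders are translated more. Atf4, Atf5, Ddit3 and Ppp1r15a are known for such upstream frames. The ATF4 protein then switches on genes of amino acid and one-carbon supply (Asns, Psat1, Phgdh and Mthfd2) and the regulators Trib3, Ddit3 and Sesn2. In unstressed cells the upstream frames are known to keep ribosomes off the main frame of these 4 mRNAs.

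A composite site of C/EBP and ATF factors with the letters TGATGNAA is known from promoters that ATF4 activates. Every member matched a promoter window of RefSeq (build GRCm38.p6), which reaches from 250 bases before to 50 after a gene's start. The letters, or TTNCATCA for the other strand, stand in the windows of 2 of the 10 members, Asns and Trib3, and in a window of the same length of 4.51% of all 27025 genes. These 2 stretches are shown because no other member's window holds the letters, which are in capitals:
Asns (minus strand, chr6:7693216-7693241): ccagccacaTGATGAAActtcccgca
Trib3 (minus strand, chr2:152344030-152344055): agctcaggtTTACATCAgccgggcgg
The match begins 23 bases before the gene start in Asns and 14 bases after it in Trib3. A match is a description of letters, not of binding.

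The share of probes detected was 23.9% to 37.8% on polysome arrays and 25.5% to 39.9% on total RNA arrays. Of 11 fibroblast markers, 10 were detected on every total RNA array, against 0 of 4 epithelial and 0 of 3 endothelial markers and 0 of 2 immune markers on the array. The labels give 4 processing batches. Batch 4 held the 3 groups with 4Ei-4 or of the non-inducible line and none of the rest. The groups with 50, 100 and 200 µM of 4Ei-1 each had 1 culture in batch 1 and 2 in batch 2, the 10 µM group lay in batch 3, and the 0 µM group had 1 culture in each of these. Levels of some members differed between batches. Total RNA of Atf4 was 8.50 to 9.72 on the log2 scale in the 7 cultures of batch 2, against 10.10 to 11.52 in the other 3 batches. Ddit3 went the other way, with 10.32 to 11.15 in batch 2 and 9.42 to 9.75 in batch 3. Phgdh was 7.66 to 8.67 in batch 2, against 9.58 to 10.24 in batch 1. Fits of the doses and of mifepristone in the inducible line therefore held batch as a term.

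Polysome RNA was first set against total RNA of the same culture. Log2 polysome RNA minus log2 total RNA is called efficiency here; arrays were scaled to each other, so it is relative to the other genes on the arrays, and its median over all genes tested was 0.05. Atf4, Atf5, Ddit3 and Ppp1r15a, the members known for upstream frames, had less RNA on heavy polysomes than in total RNA. Of these, Ddit3 is also an ATF4 target. The ATF4 targets Trib3, Sesn2, Mthfd2 and Asns had more, while the targets Psat1 and Phgdh did not pass the test used below. Other mRNAs with upstream frames and other ATF4 targets, given below as lists, went in either direction. Over the mean of the 9 groups, 8 of the 10 members passed limma's test at a Benjamini-Hochberg adjusted p below 0.05 over all genes (called from here on), 4 lower and 4 higher. Of all genes, 45.1% were called, 26.9% higher and 18.2% lower. The members were called more often than that in either direction, but they were chosen with earlier results of these data known. A tested gene needed detection on 3 arrays only, whereas most members were detected on all 50. The difference between these shares was not tested.

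Ddit3, which encodes the transcription factor CHOP, had the lowest efficiency of the 10 by each gene's brightest probe, though the second probe of Atf4, given below with its gene, lay lower. Its efficiency was -2.08 at the lowest, -1.44 at the median and -0.31 at the highest of 25 cultures. It was below 0 in 25 of 25 cultures, and its lowest and highest values came from a 0 µM and a mifepristone-free culture of the inducible line. The mean of the groups was -1.41 ± 0.12 (SE, adjusted p = 1.67e-09), and Ddit3 was called in 8 of 8 groups of 3 cultures taken one by one. It was also called in the group of 1 culture, whose spread had to be taken from the other groups. In these 9 groups 7.19% to 31.1% of all genes were called. Its second probe had a mean efficiency of -1.38 ± 0.17.

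Atf5, an activator related to ATF4, ran from -1.29 over a median of -0.78 to -0.18. All 25 cultures lay below 0, the mean of the groups was -0.76 ± 0.10 (adjusted p = 1.52e-06), and 7 of 9 groups were called. Median scaling left a mean of -0.40 and quantile scaling within each fraction -0.43, both still called. Atf4 itself ran from -1.72 over -0.63 to 0.45, and 23 of 25 cultures lay below 0. Its mean was -0.70 ± 0.15 (adjusted p = 0.000486), and the lowest 3 values among the cultures of batch 4 were those with 4Ei-4. Of the 8 groups of 3 cultures taken one by one, 2 were called for Atf4. The second Atf4 probe, detected on all 50 arrays, had an efficiency of -1.76 ± 0.25 and was below 0 in 25 of 25 cultures. The 2 probes of Atf4 thus share the direction but differ in size, and with the mean over both the gene stood at -1.23.

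Ppp1r15a encodes GADD34, which guides a phosphatase to eIF2 and ends the response. Its efficiency ran from -1.07 over -0.42 to 0.12, below 0 in 23 of 25 cultures. The mean was -0.38 ± 0.09 (adjusted p = 0.000858). Other ways of scaling the arrays took this call away: with median scaling the mean was -0.12 (adjusted p = 0.290), and with quantile scaling within each fraction it was -0.14 (adjusted p = 0.222). The authors' log2 values gave -0.19 and no background correction -0.21, both called. Median scaling also left Atf4 uncalled, at -0.37 (adjusted p = 0.0736), and quantile scaling within each fraction gave -0.37 as well (adjusted p = 0.0495).

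Trib3, a pseudokinase that restrains ATF4 and CHOP, stood with Sesn2 at the high end of efficiency. It ran from 0.26 over 0.99 to 2.01 and was above 0 in every culture. Its mean was 1.05 ± 0.12 (adjusted p = 1.56e-07), and the 9 group values lay between 0.90 and 1.19. Of the 8 groups of 3 cultures, 8 were called. Total RNA of Trib3 was not detected in the culture with the highest value, replicate 2 at 0 µM. The other Trib3 probes, detected on 11 and 29 of 50 arrays, were also higher on polysomes, at 0.39 ± 0.13 and 0.52 ± 0.20. The size of the Trib3 value depended on the processing: it was 0.40 with the authors' log2 values, 0.52 with no background correction and 0.65 with the mean over probes, called each time.

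Sesn2, which restrains mTORC1 when leucine is short, was at 0.05 at the lowest, 0.87 at the median and 2.40 at the highest. Its mean was 1.03 ± 0.16 (adjusted p = 1.15e-05), and 4 of 8 groups of 3 cultures were called. The mean was 0.16 with the authors' log2 values, 0.33 with no background correction and 0.40 with the mean over probes, called each time. These values need care, because total RNA of Sesn2 was detected in 13 of 25 cultures only, and in none of the 9 with 50, 100 or 200 µM of 4Ei-1. With undetected values raised to the lowest signal detected on their array, Sesn2 was at least 2.22-fold higher on polysomes at 50 µM and at least 1.94-fold at 100 µM. At 200 µM polysome RNA was detected in 2 of 3 cultures, and no bound is given. By batch, the values were 0.40 to 1.66 in batch 1, 1.30 to 2.40 in batch 2, 0.05 to 0.67 in batch 3 and 0.44 to 0.91 in batch 4. Total RNA was detected in 0 of the 12 cultures of batches 1 and 2 and in all 13 of batches 3 and 4, so the values of the first 2 batches stand over a signal not above background and no order is read between batches. The 2 other Sesn2 probes, detected on 8 and 7 of 50 arrays, were not called (0.11 ± 0.10 and 0.05 ± 0.09).

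Mthfd2, a mitochondrial folate enzyme of one-carbon supply, ran from 0.31 over 0.70 to 1.34. It lay above 0 in all 25 cultures, with a mean of 0.76 ± 0.08 (adjusted p = 5.53e-08), and its second probe stood at 0.85 ± 0.19. Asns, which makes asparagine, ran from -0.44 over 0.57 to 1.19 and was below 0 in 1 culture, the 0 µM replicate 2. Its mean was 0.52 ± 0.11 (adjusted p = 0.000328). Of its other probes, the one detected on all arrays was called too (0.39 ± 0.10), and the dim one was not (0.14 ± 0.13).

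The serine enzymes were not called. Psat1, the aminotransferase of serine synthesis, had a mean efficiency of 0.28 ± 0.12 (adjusted p = 0.0588). That lay near the threshold, and several other settings, though not all, did call Psat1 higher. Among them were the authors' log2 values (0.30, adjusted p = 0.0192) and median scaling (0.66, adjusted p = 0.000234). Phgdh, which opens that pathway, had -0.01 ± 0.17, with values from -1.24 to 1.60 that spread on either side of 0. The plot of efficiency by gene shows these 10 distributions.

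**Figure D1:**
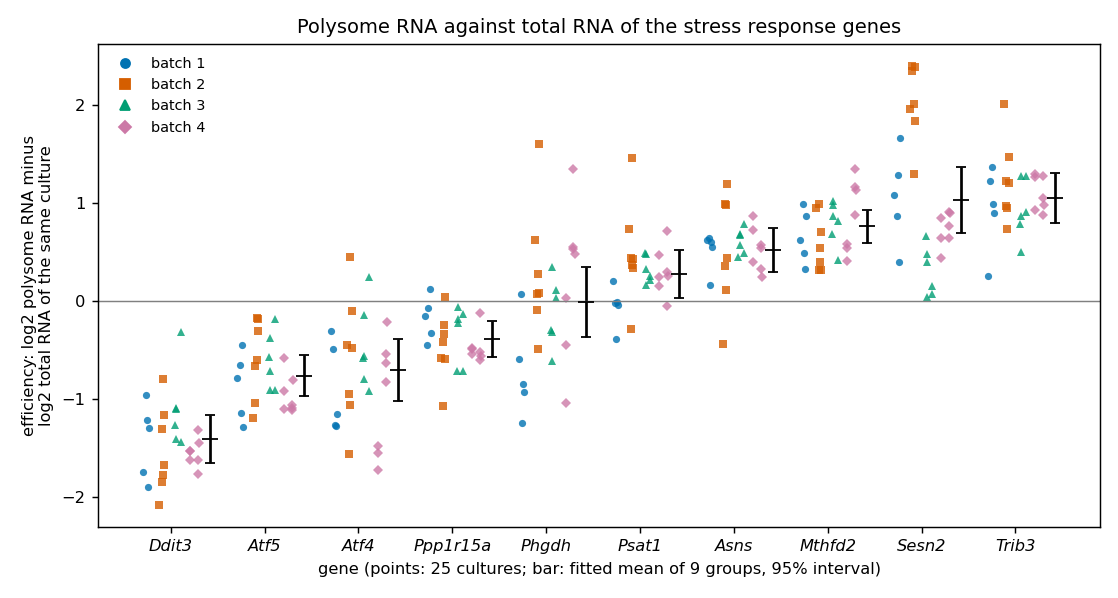
Efficiency (log2 polysome RNA minus log2 total RNA, vertical axis) of the 10 genes, each point a culture, coloured by processing batch and spread sideways by batch. The bar beside each gene is the fitted mean of 9 groups with its 95% interval. By each gene's brightest probe, Ddit3 and Atf5 lie below 0 in all 25 cultures and Trib3, Sesn2 and Mthfd2 above 0 in all 25. Total RNA of Sesn2 was detected in 13 of the 25 cultures only, so its other values stand over a signal not above background.

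Other genes of the pathway were taken as lists. Their counts stand beside the 26.9% of all genes called higher and 18.2% called lower, and differences from these shares were not tested. Of 16 tested kinases, eIF2 and eIF2B subunits and their regulators, 10 were called higher on polysomes and 1 lower, with a median efficiency of 0.40. Among them were the eIF2 subunit Eif2s3x (0.93 ± 0.09, adjusted p = 2.67e-08) and the eIF2B subunits Eif2b4 (0.81 ± 0.10, adjusted p = 3.41e-07) and Eif2b5 (0.60 ± 0.08, adjusted p = 1.78e-06). Of 26 other ATF4 target genes, 10 were called higher and 6 lower (median 0.10). The amino acid transporters Slc38a2 (-2.45 ± 0.10, adjusted p = 4.95e-14) and Slc7a3 (-0.99 ± 0.12, adjusted p = 2.74e-07) were low on polysomes, and the tryptophanyl-tRNA synthetase Wars was high (0.98 ± 0.10, adjusted p = 2.17e-08). The 14 genes of the unfolded protein response of the endoplasmic reticulum (ER) had 9 called lower and 0 higher, with a median of -0.78. They included the chaperone lectin Calr (-1.87 ± 0.22, adjusted p = 2.9e-07) and the disulfide isomerase Pdia4 (-1.68 ± 0.19, adjusted p = 1.22e-07). Of 8 transcription factors that pair with or act beside ATF4, 3 were higher and 2 lower, of which Nupr1 was lowest (-1.39 ± 0.12, adjusted p = 1.32e-09). Of 11 other serine and folate genes 4 were higher and 1 lower, the mitochondrial Aldh1l2 (-0.95 ± 0.15, adjusted p = 1.8e-05). Of 9 other mRNAs known for upstream frames, 1 was higher, Cebpb (0.55 ± 0.10, adjusted p = 5.54e-05), and 1 lower, Slc35a4 (-0.56 ± 0.08, adjusted p = 1.68e-06). Of 11 other targets of p53, which also activates Sesn2, 3 were higher and 1 lower.

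The inducible line with 4Ei-4 was next set against the non-inducible line, both with mifepristone. The 2 groups share batch 4, but the line and the drug change together and cannot be told apart. Relative to the non-inducible line, Atf4 and Phgdh were lower on polysomes and Ddit3 higher. In total RNA Atf4 was lower and Ddit3, Mthfd2 and Ppp1r15a were higher. That is 1 member called higher and 2 lower on polysomes, where 31.5% of all genes were called, 16.1% higher and 15.4% lower. In total RNA 3 were higher and 1 lower, against 24.5% of all genes, 12.6% higher and 11.9% lower. In efficiency Phgdh alone was called, lower, against 11.4% of all genes, 6.35% higher and 5.02% lower. The number of members called was close to these shares on polysomes and in efficiency. Under median scaling of the arrays, 29.7% of the genes called on polysomes were higher, against 51.1% here, and 20.2% of those called in total RNA, against 51.4% here. Atf4 and Phgdh on polysomes and Atf4 in total RNA were still called under that scaling.

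Atf4 on polysomes was 8.59, 8.55 and 9.29 on the log2 scale in the inducible cultures with 4Ei-4, against 10.65, 10.56 and 10.82 in the non-inducible cultures. The groups did not overlap, and the difference was -1.87 ± 0.39 (adjusted p = 0.000983). Total RNA of Atf4 was 10.31, 10.10 and 10.76 with 4Ei-4, against 11.28, 11.39 and 11.36 in the non-inducible line, a difference of -0.95 ± 0.26 (adjusted p = 0.0102). Again no culture overlapped. In total RNA the call went without 4Ei-4 replicate 2 (-0.80, adjusted p = 0.0602) and with the mean over probes (-0.32, adjusted p = 0.351). It also went, at the same difference, without a batch term (adjusted p = 0.382) and with batch as a random block (adjusted p = 0.102). The second Atf4 probe gave -1.39 ± 0.70 on polysomes (adjusted p = 0.172) but 0.32 ± 0.22 for total RNA (adjusted p = 0.398), so the lower total RNA rests on the brightest probe. In efficiency Atf4 was at -1.72, -1.55 and -1.47 with 4Ei-4, against -0.63, -0.83 and -0.54 in the non-inducible line. These did not overlap either, but the difference of -0.92 ± 0.40 was not called (adjusted p = 0.165).

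Ddit3 on polysomes was 8.31, 8.36 and 8.79 with 4Ei-4, against 7.48, 7.71 and 7.33 in the non-inducible line (0.98 ± 0.29, adjusted p = 0.0143). In total RNA it was 9.84, 9.89 and 10.41 with 4Ei-4, against 9.11, 9.02 and 9.10 (0.97 ± 0.18, adjusted p = 0.000559). Median scaling left neither called (0.65 for polysome RNA, adjusted p = 0.153, and 0.63 for total RNA, adjusted p = 0.0506). All 3 cultures with 4Ei-4 were above all 3 non-inducible ones in both RNAs, and efficiency differed by 0.01 ± 0.30. The polysome call went without 4Ei-4 replicate 3 (0.82, adjusted p = 0.0747) and without non-inducible replicate 3 (0.89, adjusted p = 0.0568). It went too with the authors' log2 values (0.57, adjusted p = 0.0559) and with the mean over probes (0.60, adjusted p = 0.158), as did the total RNA call with the mean over probes (0.52, adjusted p = 0.0614). The second Ddit3 probe, detected on 48 of 50 arrays, did not show the difference, at 0.22 ± 0.34 for polysome RNA (adjusted p = 0.801) and 0.06 ± 0.24 for total RNA (adjusted p = 0.946). The difference in Ddit3 was thus called for 1 of its 2 probes.

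Mthfd2 in total RNA was 8.30, 8.53 and 9.43 with 4Ei-4, against 6.98, 7.04 and 8.22 in the non-inducible line. Every culture with 4Ei-4 was higher, by 1.34 ± 0.38 on average (adjusted p = 0.0128). Replicate 3 stood high in either group. The call went without 4Ei-4 replicate 3 (1.00, adjusted p = 0.0908), without non-inducible replicate 1 (1.12, adjusted p = 0.0719) and without non-inducible replicate 2 (1.15, adjusted p = 0.0683). Median scaling left 0.92 (adjusted p = 0.0769). The authors' log2 values gave 0.75 (adjusted p = 0.0177) and no background correction 0.88 (adjusted p = 0.0123). On polysomes the difference was 0.72 ± 0.41 (adjusted p = 0.217). The second probe gave 0.70 ± 0.35 in total RNA (adjusted p = 0.184).

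Ppp1r15a in total RNA was 7.56, 7.54 and 7.56 with 4Ei-4, against 7.06, 6.71 and 7.06 in the non-inducible line (0.61 ± 0.16, adjusted p = 0.00728). The groups did not overlap, and the call went without non-inducible replicate 2 (0.50, adjusted p = 0.0535) and under median scaling (0.18, adjusted p = 0.609). At the same difference it also went without a batch term (adjusted p = 0.160), and it held at a smaller size with the authors' log2 values (0.23, adjusted p = 0.0194) and no background correction (0.32, adjusted p = 0.00606). Phgdh on polysomes was 8.15, 8.73 and 9.35 with 4Ei-4, against 10.22, 9.49 and 9.57 (-1.01 ± 0.33, adjusted p = 0.0243). Its total RNA did not follow, at 9.19, 9.18 and 9.32 with 4Ei-4 against 8.87, 8.96 and 9.02 (0.28 ± 0.18, adjusted p = 0.304). Efficiency of Phgdh differed by -1.29 ± 0.41 (adjusted p = 0.0490), with -1.04, -0.45 and 0.03 with 4Ei-4 against 1.35, 0.53 and 0.55 in the non-inducible line. That call was lost when any of the 6 cultures was left out, and the polysome call without replicate 1 (-0.72, adjusted p = 0.157) or 2 (-1.01, adjusted p = 0.0608) with 4Ei-4 or non-inducible replicate 1 (-0.78, adjusted p = 0.133). Without a batch term the polysome call went as well (adjusted p = 0.0862).

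The other members were not called. Trib3 had 7.09, 7.20 and 8.66 on polysomes with 4Ei-4, against 6.46, 6.86 and 6.56 in the non-inducible line (1.02 ± 0.44, adjusted p = 0.0881). Its probe detected on 11 of 50 arrays passed the test at 1.13 ± 0.35 on polysomes (adjusted p = 0.0225), and the one detected on 29 did not (0.72 ± 0.49, adjusted p = 0.354). Asns differed by 0.18 ± 0.18 on polysomes with its brightest probe (adjusted p = 0.564). Its other probe detected on all 50 arrays, named after its values were seen, differed by 1.24 ± 0.20 on polysomes (adjusted p = 0.00014), and by 1.31 ± 0.18 for total RNA (adjusted p = 3.44e-05). The dim probe differed by -0.84 ± 0.23 on polysomes (adjusted p = 0.011). The 3 Asns probes disagree, and no direction is given for this gene. Atf5, Sesn2 and Psat1 differed by -0.33 to 0.43 in either RNA.

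**Figure D2:**
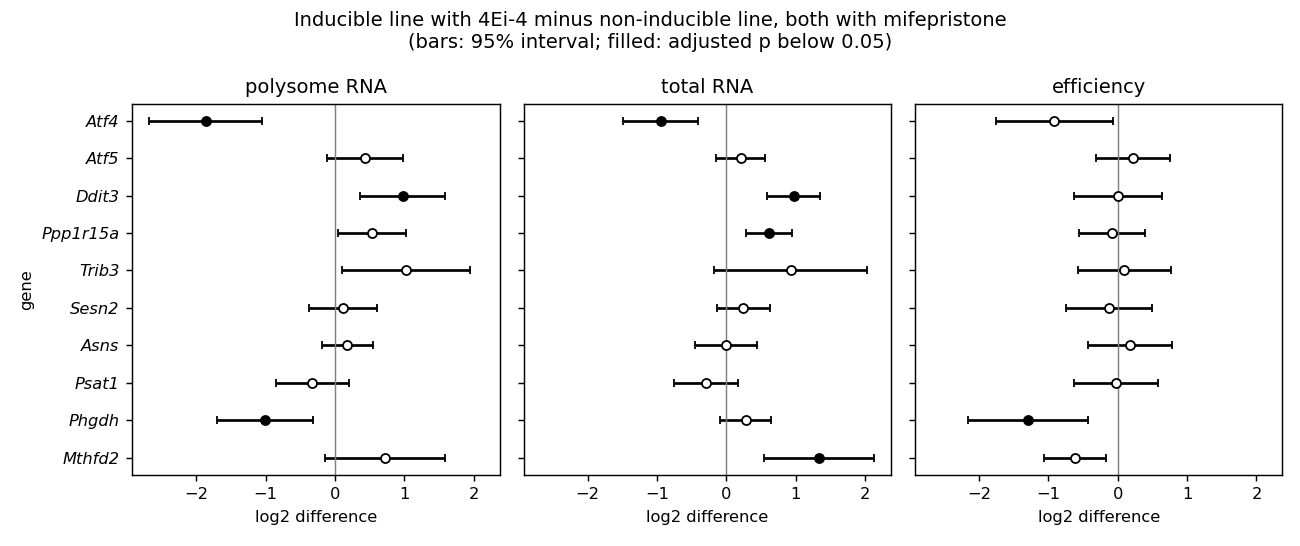
Log2 difference of the 10 genes between the inducible line with 200 µM 4Ei-4 and the non-inducible line, both with mifepristone (n = 3 cultures each), for polysome RNA, total RNA and efficiency, from each gene's brightest probe. Bars are 95% intervals and filled points have an adjusted p below 0.05; Atf4 is lower and Ddit3 higher in both RNAs.

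Genes of the pathway lists moved in this comparison too. Of 26 other ATF4 targets, 10 were called higher and 2 lower on polysomes and 8 higher and 2 lower in total RNA. The glycine transporter Slc6a9 rose by 2.54 ± 0.25 on polysomes (adjusted p = 4.8e-07), the alanyl-tRNA synthetase Aars by 1.60 ± 0.25 (adjusted p = 6.65e-05) and the seryl-tRNA synthetase Sars by 1.26 ± 0.20 (adjusted p = 6.51e-05). Aldh18a1, which makes the precursor of proline, rose by 1.53 ± 0.26 (adjusted p = 0.000176). Each was higher in 9 of 9 pairs of cultures. In the serine and folate list 3 of 11 were higher on polysomes and 0 lower, among them the mitochondrial serine hydroxymethyltransferase Shmt2 (1.43 ± 0.27, adjusted p = 0.000448) and Aldh1l2 (1.33 ± 0.26, adjusted p = 0.00046). In total RNA 0 of these 11 were called. Of the eIF2 machinery, 5 of 16 were lower and 1 higher on polysomes, and Eif2s3x was lower in both, at -1.25 ± 0.19 on polysomes (adjusted p = 4.14e-05) with -1.08 ± 0.16 for total RNA (adjusted p = 4.11e-05). Of 14 ER genes 3 were higher and 1 lower on polysomes, and 5 were lower in total RNA. Of 11 p53 targets 4 were lower and 1 higher on polysomes, with Sesn1, the relative of Sesn2, at -2.46 ± 0.20 (adjusted p = 7.06e-08). These are counts in a comparison in which 31.5% of all genes were called on polysomes and 24.5% in total RNA.

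Without drug, the inducible and non-inducible lines with mifepristone share no batch, and they were compared with batch as a random block. The non-inducible cultures are the same as above. Ddit3 in total RNA was 10.39, 11.15 and 9.62 in the inducible line, against 9.11, 9.02 and 9.10 in the non-inducible line. It was higher in 9 of 9 pairs, by 1.31 ± 0.34 (adjusted p = 0.0272), where 6.26% of all genes were called in total RNA. The call went without inducible replicate 1 (1.28, adjusted p = 0.0605) or 2 (1.06, adjusted p = 0.0868) and without non-inducible replicate 2 (1.28, adjusted p = 0.0608), and the second probe gave 0.39 ± 0.35 (adjusted p = 0.645). The call also went with the mean over probes (0.85, adjusted p = 0.0870), with only these groups fitted (adjusted p = 0.718) and among genes detected on every array (adjusted p = 0.0561). Median scaling turned the direction, to -0.065 (adjusted p = 0.960); under it the median of all genes moved to -0.84 and 0.486% of the genes called were higher, against 47.03% here. On polysomes, where 2.48% of all genes were called, Ddit3 differed by 1.18 ± 0.47 (adjusted p = 0.201). The other 9 members were uncalled in either RNA, and 0 of 10 were called in efficiency (lowest adjusted p 0.709), where 0.0158% of all genes were.

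4Ei-1 was given to ask how inhibition of eIF4E changes translation in cells with eIF4E induced. At 4 h, 0 of the 10 members were called at 10, 50, 100 or 200 µM against 0 µM, in polysome RNA, total RNA or efficiency, by limma. Few genes of any kind were: 0%, 0%, 0.119% and 0.0158% on polysomes at the 4 doses, 0%, 0.142%, 0.475% and 0.174% in total RNA, and 0%, 0.0633%, 0.332% and 0.427% in efficiency. For the slope over dose these shares were 0%, 0.0791% and 0.0237%, with 0 members called. At an unadjusted p below 0.05, 0, 2, 2 and 3 members differed on polysomes and 0, 4, 4 and 3 in total RNA. Of all 12642 genes, 135, 801, 1370 and 1617 passed that threshold on polysomes and 168, 1539, 1725 and 1481 in total RNA. The median change of the members on polysomes was -0.23, 0.22, 0.32 and 0.53 at 10, 50, 100 and 200 µM, beside -0.01 for all genes at 200 µM, and 9 of 10 members were above 0 at 200 µM. In total RNA the medians were -0.21, 0.23, 0.34 and 0.42. Over all settings, refits on fewer cultures among them, the total RNA medians ran from -0.31 to 0.13, -0.05 to 0.51, 0.05 to 0.76 and 0.08 to 0.54. On polysomes they ran from -0.50 to -0.11, 0.04 to 0.36, -0.003 to 0.46 and 0.29 to 0.77. The 4 doses share the 0 µM cultures, and a rise of the median with dose was not tested. The members' 95% intervals had a median half-width of 0.63 on polysomes and 0.45 in total RNA at 50 to 200 µM. An estimate for a single gene had to exceed about that size for an unadjusted p below 0.05. True changes of that size could therefore be missed.

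By each gene's brightest probe, which gave all values of the doses here, the largest change was that of Mthfd2. Its total RNA was 8.16, 7.85 and 8.20 at 0 µM, 7.07, 7.48 and 8.23 at 10 µM, 8.73, 8.61 and 8.94 at 50 µM, 9.10, 8.55 and 9.26 at 100 µM and 9.51, 9.25 and 9.23 at 200 µM. Every culture at 50, 100 and 200 µM was above every culture at 0 µM. The change was 0.79 ± 0.41 at 50 µM, 1.00 ± 0.41 at 100 µM and 1.36 ± 0.41 at 200 µM (adjusted p = 0.175), and it was 1.34 and 1.39 within batches 1 and 2 at 200 µM. The slope over the 5 doses was 0.84 ± 0.21 per 100 µM (adjusted p = 0.183). On polysomes the 3 higher doses did not overlap with 0 µM either (0.99 ± 0.44 at 200 µM, adjusted p = 0.362).

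Asns on polysomes was 10.91, 10.62 and 10.82 at 200 µM, against 10.32, 9.83 and 11.03 at 0 µM. The values overlap, the high 0 µM culture being the one in batch 3. With batch as a term the change was 0.70 ± 0.19 (adjusted p = 0.126), with 0.58 and 0.88 within batches 1 and 2. It was 0.63 ± 0.19 at 50 µM and 0.62 ± 0.19 at 100 µM, and at most 0.32 in total RNA. Atf5 on polysomes was 10.16, 10.39 and 10.64 at 200 µM, against 9.62, 9.52 and 10.32 at 0 µM (0.85 ± 0.28, adjusted p = 0.221). Its total RNA changed by 0.16 ± 0.18, and its efficiency at 200 µM, -0.45, -0.18 and -0.30, was above the -0.78, -1.19 and -0.57 at 0 µM in 9 of 9 pairs (0.69 ± 0.28, adjusted p = 0.281). Trib3 on polysomes was 8.23, 8.40 and 8.75 at 200 µM, against 7.84, 7.19 and 7.82 at 0 µM. These did not overlap, and the change was 0.87 ± 0.47 (adjusted p = 0.466).

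Atf4 shows how far the batches reach. On polysomes its group mean was 9.23 at 200 µM, against 9.70 at 0 µM, while the change with batch as a term was 0.40 ± 0.42, made of -0.46 within batch 1 and 0.81 within batch 2. The efficiency of Atf4 changed by -0.16 ± 0.43 at 200 µM, with a 95% interval from -1.07 to 0.75. At 200 µM Ddit3 differed from 0 µM by 0.26 ± 0.31 for polysome RNA and -0.07 ± 0.20 for total RNA. Ppp1r15a in total RNA stood lower at 50, 100 and 200 µM, by -0.41, -0.40 and -0.35 (SE 0.17 each), uncalled. Phgdh in total RNA stood at 0.66, 0.69 and 0.44 and Psat1 at 0.69, 0.50 and 0.52 against 0 µM, also uncalled. Sesn2 differed by 0.05 ± 0.25 on polysomes at 200 µM. Its total RNA was not detected at 50 to 200 µM and has no fold there. Between 200 and 50 µM, which lie in the same batches, 0 of 10 members were called in polysome RNA, total RNA or efficiency, where 0.245%, 0.0475% and 0.245% of all genes were.

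**Figure D3:**
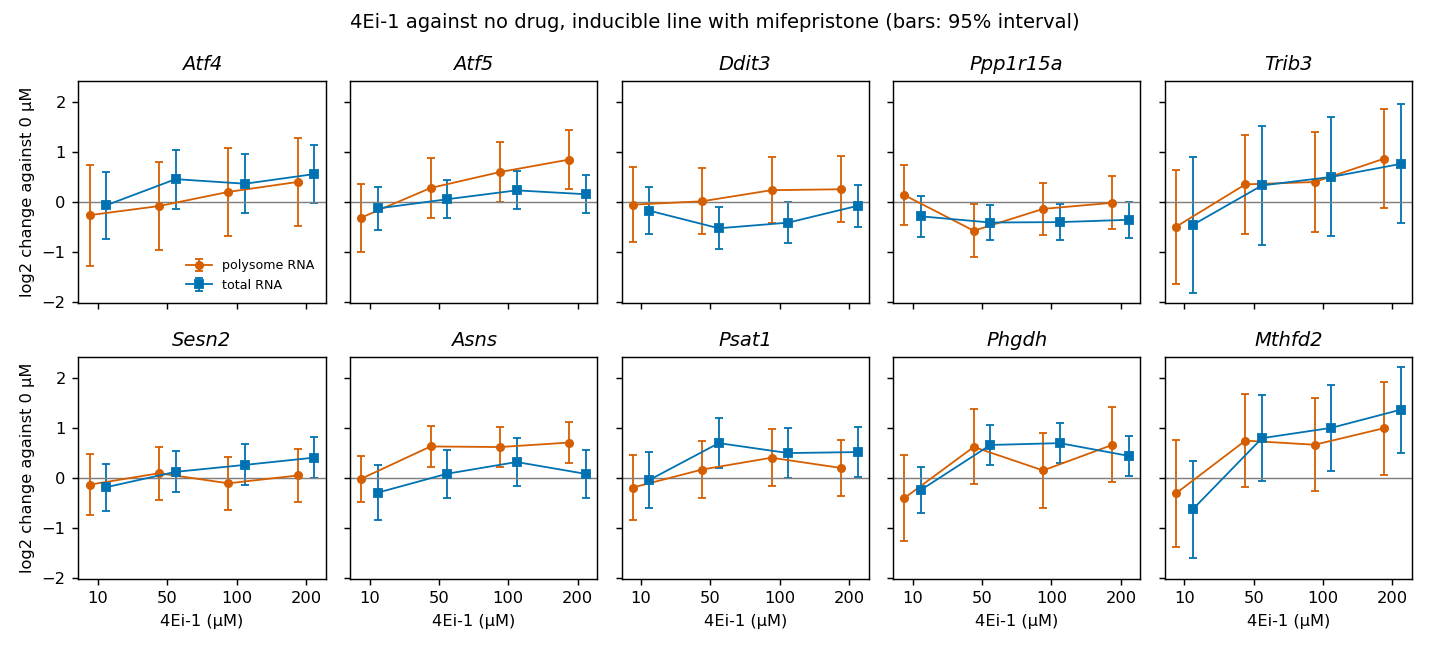
Log2 change against 0 µM of the 10 genes in polysome RNA (orange circles) and total RNA (blue squares) at 10, 50, 100 and 200 µM of 4Ei-1 (n = 3 cultures per dose; doses evenly spaced on the axis), from the fit with batch as a term. Each gene is given by its brightest probe, and bars are 95% intervals. Mthfd2 shows the largest value, 1.36 in total RNA at 200 µM, and 0 of the 10 genes were called at any dose.

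**Figure D4:**
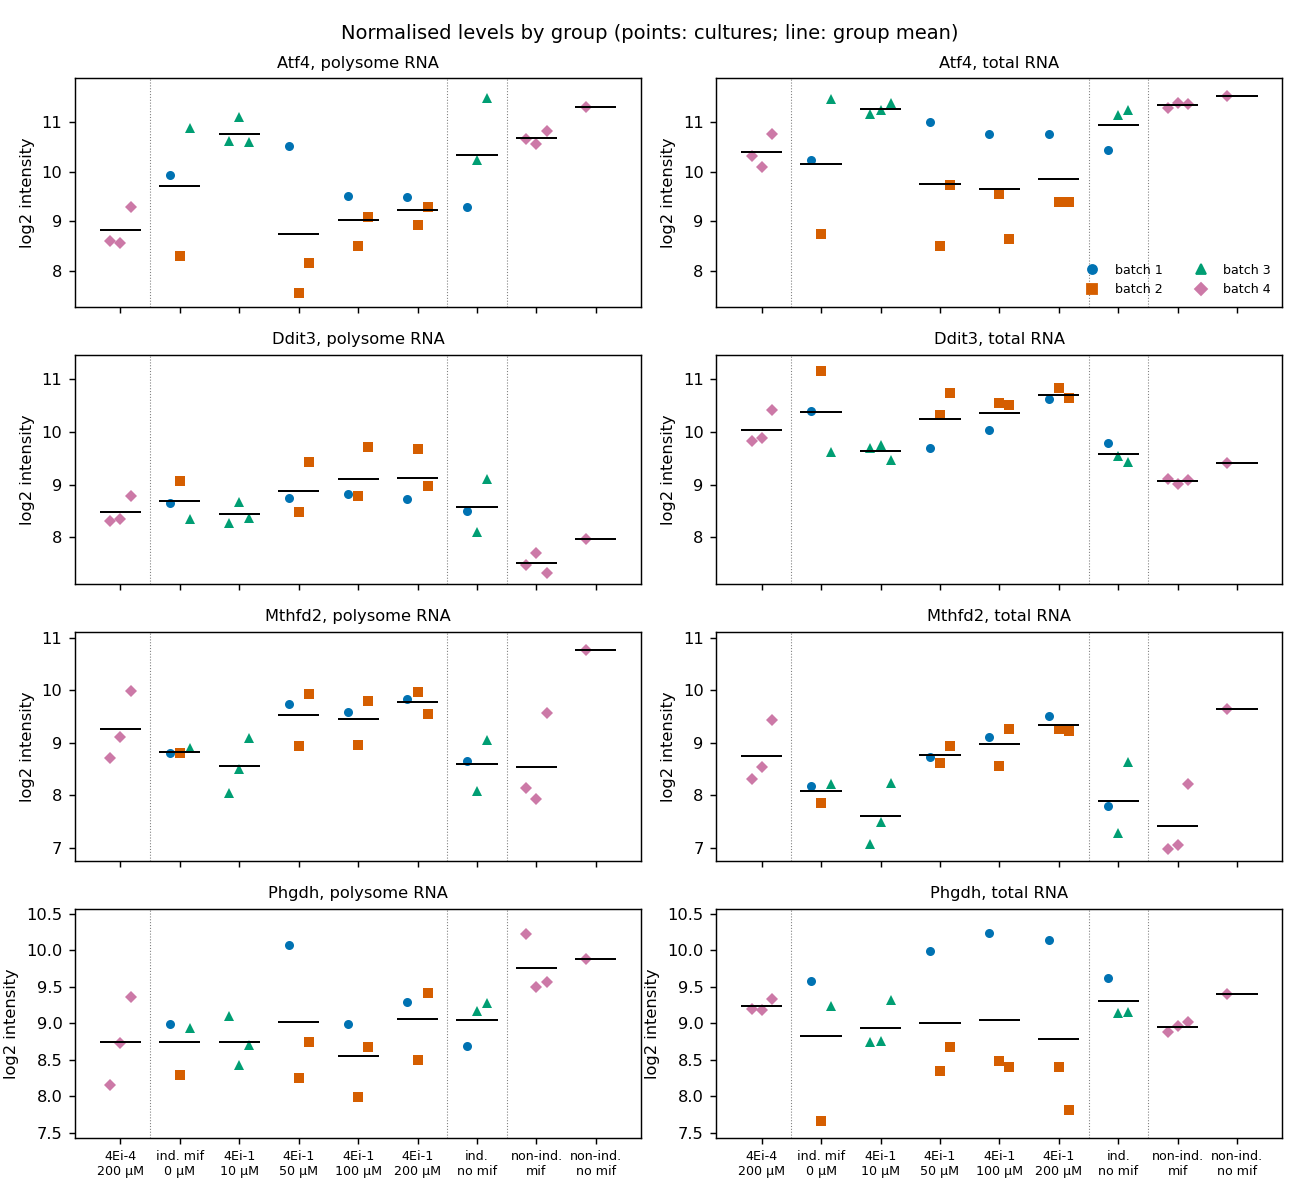
Normalised log2 intensity of Atf4, Ddit3, Mthfd2 and Phgdh in polysome RNA (left) and total RNA (right) of each culture, by group and coloured by batch, with a line at each group mean. In total RNA, Atf4 and Phgdh are low in batch 2, and every Mthfd2 value at 50 to 200 µM lies above those at 0 µM. Atf4 on polysomes is lower with 4Ei-4 than in the non-inducible line.

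Of the 7 pathway lists, 6 had 0 genes called at 200 µM of 4Ei-1 in either RNA or in efficiency. In the list of other ATF4 targets, Fgf21, a stress hormone, was called in efficiency (1.19 ± 0.26, adjusted p = 0.0447, higher in 8 of 9 pairs), where 0.427% of all genes were.

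The 2 compounds were compared at 200 µM, the dose they share, over 10 members in each RNA and in efficiency. The groups share no batch, so the intervals of this comparison are wide. 4Ei-1 against 4Ei-4 gave 0 called members, where 0%, 0.00791% and 0% of all genes were called on polysomes, in total RNA and in efficiency. On polysomes Atf4 was 9.48, 8.91 and 9.29 with 4Ei-1, against 8.59, 8.55 and 9.29 with 4Ei-4, a difference of 0.97 ± 0.78 with a 95% interval from -0.66 to 2.60. In efficiency Atf4 was at -1.27, -0.48 and -0.10 with 4Ei-1, against -1.72, -1.55 and -1.47 with 4Ei-4. That is higher in 9 of 9 pairs, by 0.96 ± 0.48 (95% interval -0.03 to 1.95, adjusted p = 0.887). Atf5 in efficiency was also higher in 9 of 9 pairs (0.59 ± 0.32, 95% interval -0.08 to 1.26). For Mthfd2 in total RNA the interval ran from -0.54 to 1.82, and for Asns on polysomes from -0.75 to 0.67. These intervals do not show that the compounds act alike. 4Ei-4 against no drug gave 0 called members as well, of 0%, 0.00791% and 0% of all genes. Its largest difference was in Atf4, whose efficiency with 4Ei-4 lay below the -0.31, -0.44 and -0.58 of the 0 µM cultures in 9 of 9 pairs (-1.14 ± 0.47, 95% interval -2.11 to -0.16). That interval is not adjusted for the number of genes. The lowest adjusted p of the members in efficiency was 0.9999 by limma, and these groups share no batch either. These 2 comparisons share the 4Ei-4 cultures.

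Mifepristone in the inducible line, which induces eIF4E, gave 0 called members in polysome RNA (0.403% of all genes), total RNA (0.625%) and efficiency (0%). At an unadjusted p below 0.05, 0, 1 and 0 members differed, as did 1023, 1023 and 560 of all 12642 genes. The members' values lay between -0.44 and 0.27 on polysomes and between -0.36 and 0.42 in total RNA. Ddit3 in total RNA was 10.39, 11.15 and 9.62 with mifepristone, against 9.79, 9.54 and 9.42 without (0.42 ± 0.20, adjusted p = 0.616), and the difference was 0.60 within batch 1 and 0.14 within batch 3. In the non-inducible line, with 1 culture without mifepristone, 9 of 10 members were lower with mifepristone on polysomes and 0 were called, as were 0% of all genes. Mthfd2 was 8.14, 7.92 and 9.56 on polysomes with mifepristone, against 10.76 in the culture without, and 6.98, 7.04 and 8.22 in total RNA, against 9.63. That culture had the highest Mthfd2 of all 25 in either RNA. The differences were -2.23 ± 0.58 and -2.22 ± 0.53, with an SE that takes the spread of the lone culture from the other groups. The effect of mifepristone on Mthfd2 differed between the lines by 2.50 in either RNA, which rests on the same culture, and was uncalled (lowest adjusted p of the members 0.497 in total RNA), where 0.0237% of all genes were called.

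The members did not vary as 1 group. Over the 25 cultures, the total RNA of each was set against the mean of the other 9, each standardised. Pearson's r was highest for Mthfd2 (0.56), Asns (0.39), Psat1 (0.39) and Atf5 (0.37), and below 0 for Ddit3 (-0.21) and Ppp1r15a (-0.28). Of 8090 other genes detected on at least 25 of the 50 arrays, the closest to the mean of the 10 members were the alanyl-tRNA synthetase Aars (0.66), the proteasome subunit Psmc5 (0.57), the RNA helicase Ddx1 (0.54), Ccdc93 (0.53) and the asparaginyl-tRNA synthetase Nars (0.53). These values describe 25 cultures that share batches and the scaling of the arrays. In bulk RNA of a culture, fewer cells with an mRNA and less of it per cell cannot be told apart.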

How the data were processed

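Illumina bead arrays measured polysome RNA and total RNA of 25 cultures. The authors deposited a mean bead intensity per probe, not normalised per the file headers, with a detection p-value for each intensity. They also deposited log2 values, of which the labels and headers do not state the normalisation; these followed the same order of probes as the intensities and served as an alternative. Intensities were corrected with normexp from the detection p-values (offset 16), quantile normalised over all 50 arrays and taken to log2 with limma 3.58.1 in R 4.3.3. The number of arrays limits the precision. The brightest probe stood for each gene. Names came from the platform annotation, in which 34885 probes have 1 symbol, 18 several and 10378 none; 34807 symbols matched RefSeq.

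Polysome RNA, total RNA and their difference per culture were fitted in limma over 25 cultures and 12642 genes, with Benjamini-Hochberg adjustment over all of them, two-sided. Batch was a fixed term, or a random block (within-batch correlation 0.447, 0.406 and 0.172) for the mean of the 9 groups and for comparisons between batch 4 and the others. Each kind of fit was tested on simulated data that held known changes. The simulated batch shifts were not matched to those of these arrays, and none were drawn for the mean of the 9 groups.

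The members and lists were chosen with earlier results of these data known. Members are always named; of each list, up to 4 called genes with the smallest adjusted p per comparison may be, and the 5 genes most like the members by Pearson's r. Replicate numbers are shared between groups, but the deviations of same-numbered cultures correlated at -0.39 to 0.57 and all pairs exceeded 0.1 in 3 of 20 checks, so the numbers were not taken as pairs.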

Additional observations from a re-analysis of the deposited data

How the results depend on the processing

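Each result was recomputed with the authors' log2 values, no background correction, other scalings, filters, probe summaries and batch terms, with fewer groups in the fit and with each culture left out. Most tested alternatives to the 17 called member results kept direction and call, chiefly for polysome against total RNA. Calls between groups held less often (Phgdh efficiency in 5 of 12 settings). Ddit3 in total RNA between the lines without 4Ei-4 turned direction (-0.065, median scaling). The causes of the changes below were not tested. For 4Ei-4 against the non-inducible line, 5 members were called on polysomes with only these groups fitted and 4 with the replicate block. The number was 2 with the authors' log2 values, median scaling, the mean over probes and no batch term (3 otherwise). In total RNA it was 1 under median scaling and 2 with the mean over probes, the replicate block or no batch term. It was 3 with batch as a random block and 6 with only these groups (4 in other settings that kept every culture). In efficiency it was 0 under median scaling, no filter, the mean over probes, every probe on its own, no batch term, batch as a random block and the replicate block, 3 with only these groups and 2 with genes detected on every array (1 otherwise). Between the lines without 4Ei-4, the number on polysomes was 1 under median scaling, with the replicate block and without a batch term (0 otherwise); of all genes, 1974, 1538 and 1410 were called, against 313. In total RNA it was 0 under median scaling, the mean over probes, only these groups and detection on every array, and 2 with no batch term or the replicate block (1 otherwise). For 4Ei-1 at 100 and at 200 µM, 1 member was called in efficiency under median scaling, Mthfd2 (-0.99, adjusted p = 0.0250, and -0.92, adjusted p = 0.0429), where 1109 and 718 of all genes were called, against 42 and 54.

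With the replicate number as a block in place of batch, the slope over dose gave 2 members on polysomes, Trib3 (0.54 per 100 µM, adjusted p = 0.0286) and Mthfd2 (0.53, adjusted p = 0.0233), and 1 in total RNA, Mthfd2 (0.75, adjusted p = 0.0125). Of all 12642 genes, 1724 were called on polysomes in that fit, against 0 with batch as a term, and 33 in total RNA, against 10. With that block the total RNA calls of Atf4 (adjusted p = 0.328) and Ppp1r15a (adjusted p = 0.155) for 4Ei-4 against the non-inducible line were lost. It leaves batches out of the fit.

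Leaving out each culture gave 8 to 9 members for polysome against total RNA. It gave 2 to 3 on polysomes, 2 to 4 in total RNA and 0 to 0 in efficiency for 4Ei-4 against the non-inducible line, and 0 to 1 in total RNA between the lines without 4Ei-4. Psat1, uncalled over the 9 groups, was called under median scaling (0.66) and in 6 other settings that kept every culture.

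Of all genes, 3976 called on polysomes for 4Ei-4 against the non-inducible line became 2607 with no batch term and 6006 with only these groups. In total RNA 3099 became 1993 and 5418. In efficiency 1437 became 763 with the replicate block, 753 without a batch term, 4333 with only these groups and 2162 under median scaling. Between the lines without 4Ei-4, 791 in total RNA became 2878 under median scaling, 2296 with the replicate block, 2051 without a batch term, 8 with only these groups and 267 with genes detected on every array. Of 5701 for polysome against total RNA, 3542 were called among genes detected on every array, where fewer were tested. Counts near 0 moved as well: in efficiency the slope over dose gave 3 genes and up to 832 (no batch term), 50 µM of 4Ei-1 gave 8 and up to 280 (median scaling) and the lines without 4Ei-4 gave 2 and up to 106 (median scaling). 4Ei-1 against 4Ei-4 gave 0 on polysomes and up to 1004 (median scaling). Taken probe by probe, 6584, 5458 and 2359 probes were called with 4Ei-4 against the non-inducible line on polysomes, in total RNA and in efficiency, 1339 in total RNA between the lines without it and 10388 for polysome against total RNA. With each culture left out, 570 to 835 genes were called in efficiency with 4Ei-4 and 456 to 1435 in total RNA between the lines without it. Signal over background limits Sesn2 most, detected on 37 of 50 arrays.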
